A study of Rattus norvegicus with 12 samples.

Results

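Transcripts of 5 hypothalamic neurohormone genes were followed in the preoptic area of newborn rats: Oxt (oxytocin), Avp (vasopressin), Crh (corticotropin-releasing hormone), Trh (thyrotropin-releasing hormone) and Pomc (pro-opiomelanocortin). The members were taken by a fixed list of Ensembl identifiers, and all 5 were found among the 29516 identifiers of the files. They are ENSRNOG00000021225 for Oxt, ENSRNOG00000021229 for Avp, ENSRNOG00000012703 for Crh, ENSRNOG00000011824 for Trh and ENSRNOG00000012686 for Pomc. The pairing of symbol and identifier comes from that list, because neither the files nor the reference table used here pairs them. The study asked what inhibition of DNA methyltransferases (DNMT) does in the neonatal preoptic area of each sex. Pups of both sexes were given zebularine, which inhibits these enzymes and is an analogue of cytidine, or the vehicle alone. Dosing fell on postnatal days 0 and 1 and the tissue was taken on day 2. As vehicle, saline contained 0.1% solvent, spelled DNMSO in the labels. Each sex contributed 3 vehicle and 3 zebularine libraries, 12 in all. The sources used here give neither the strain nor the zebularine dose, nor whether a library holds 1 animal or a pool, so p-values measure the spread between libraries, which may be technical.

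The 5 genes encode precursors that are cut into secreted peptides. Oxytocin and vasopressin are made by large neurons of the supraoptic and paraventricular nuclei, which lie close to the preoptic area and send axons to the posterior pituitary, and by smaller neurons elsewhere in the forebrain. CRH and TRH are releasing hormones that drive the pituitary to secrete ACTH and thyrotropin, and both are also made outside the cells that supply the pituitary. POMC is the precursor of ACTH, the melanocortins and beta-endorphin, and its hypothalamic neurons lie in the arcuate nucleus, behind the preoptic area. In bulk tissue, fewer cells of a type and less RNA per cell cannot be told apart.

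DNMTs add methyl groups to cytosine where guanine follows it (CpG), so the stretches upstream of 3 of the genes are shown with every CpG in capitals. Each is the 250 bases before the annotated start, read on the gene's own strand from RefSeq on build GRCr8. Oxt and Avp are neighbours on chromosome 3, with no other gene of the reference table between them, and are read from opposite strands. The windows are chr3:138235504-138235753 (plus strand) for Oxt, chr3:138248523-138248772 (minus strand) for Avp and chr4:126301763-126302012 (minus strand) for Trh. These 3 genes are shown because their levels were lowest in the same libraries, as described below.
Oxt: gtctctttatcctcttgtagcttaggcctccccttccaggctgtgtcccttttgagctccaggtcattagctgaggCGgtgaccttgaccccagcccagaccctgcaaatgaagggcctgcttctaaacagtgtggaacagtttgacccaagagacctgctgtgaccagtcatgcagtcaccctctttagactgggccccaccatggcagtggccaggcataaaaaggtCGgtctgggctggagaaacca
Avp: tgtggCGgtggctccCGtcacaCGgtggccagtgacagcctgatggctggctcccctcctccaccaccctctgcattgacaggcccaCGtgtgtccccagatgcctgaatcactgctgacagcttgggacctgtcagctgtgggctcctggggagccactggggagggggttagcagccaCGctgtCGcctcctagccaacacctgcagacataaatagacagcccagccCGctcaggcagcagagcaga
Trh: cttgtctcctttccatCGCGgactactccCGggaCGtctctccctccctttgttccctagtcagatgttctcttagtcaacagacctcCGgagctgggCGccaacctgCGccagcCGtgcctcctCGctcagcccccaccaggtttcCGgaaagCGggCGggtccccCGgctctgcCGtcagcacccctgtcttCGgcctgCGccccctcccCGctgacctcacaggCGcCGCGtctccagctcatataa
The Oxt window held 2 CpG, the Avp window 7 and the Trh window 20. The Pomc window also held 20, and no window for Crh was in the table. Among 33465 upstream windows of the same length the median was 5 CpG. As many or more than in the Trh and Pomc windows were present in 16.7% of windows, and as few as in the Oxt window or fewer in 28.6%. The letters GGTCA, read on either strand (so also as TGACC), belong to the sites bound by several nuclear hormone receptors. They occurred 5 times upstream of Oxt, at -189, -171, -165, -107 and -88 from the start, and 0.0508% of all windows held 5 or more. They occurred once upstream of Trh, at -35, and not in the Avp window, where 35.4% of all windows held at least 1. The Pomc window held 2, at -246 and -68, and 8.37% of all windows held as many or more. None of these matches touched a CpG. These are counts of letters in a sequence, and neither methylation nor receptor binding was measured.

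Reads assigned to genes ran from 15851731 to 30475130 per library, as recovered from the steps of the deposited values. Zebularine female replicate 3 stood apart from the others on the first principal component of all tested genes, with a score of 50.4 where the other 11 libraries lay between -11.6 and 9.49. Results for the neurohormones are therefore also given without it where it matters. Neither the sex labels nor the tissue label was checked against marker genes, since the files carry identifiers only. For the same reason the receptors, processing enzymes and regulators of these peptides are not analysed here.

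The files hold RPKM, which divides a gene's reads by its length and by the depth of the library and so allows genes to be compared. On it Trh was the most abundant of the 5, with a mean over the 12 libraries of 21.3 RPKM. Oxt followed at 10.97, Crh at 4.22, Avp at 3.22 and Pomc at 1.35 RPKM. The gene models were 1331 bases for Trh, 531 for Oxt, 1196 for Crh, 575 for Avp and 939 for Pomc. The order of the means hides how unequal the spread was: the highest library exceeded the lowest 43.2-fold for Oxt, 13.3-fold for Avp, 4.72-fold for Trh, 2.48-fold for Crh and 1.75-fold for Pomc.

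**Figure D1:**
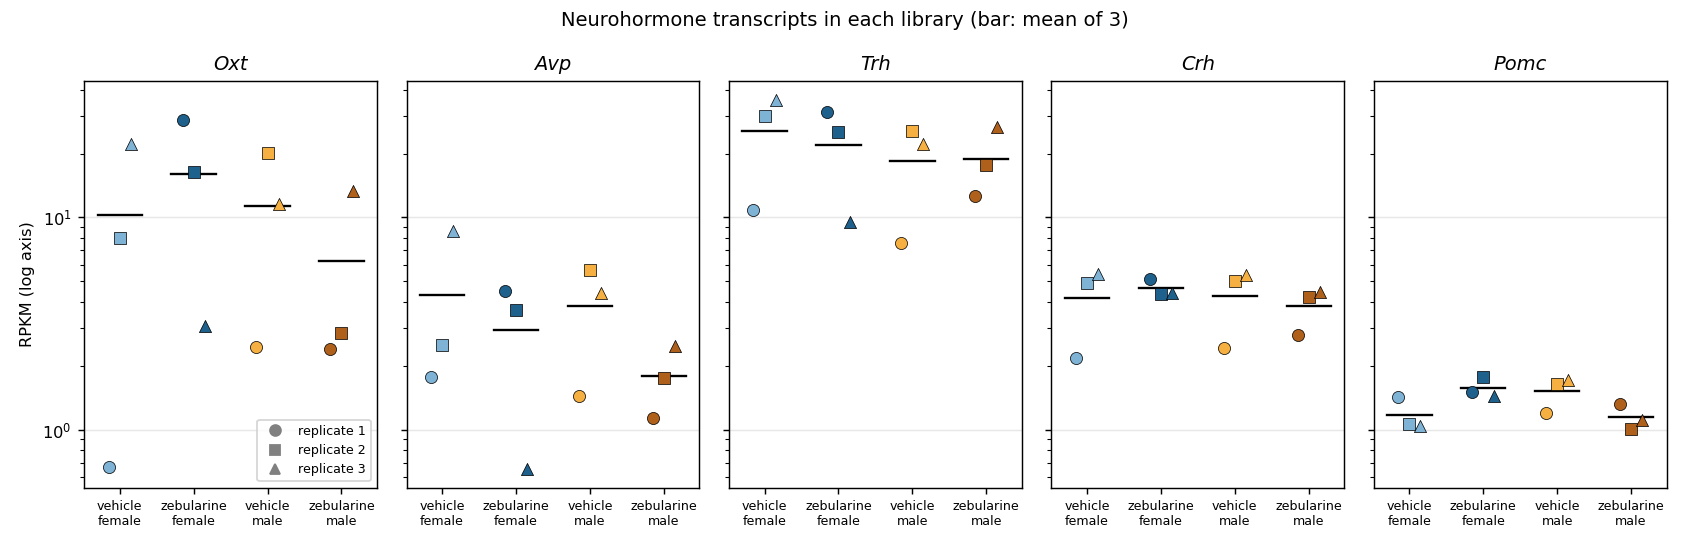
RPKM of each neurohormone transcript (log axis) in the 12 libraries by group, with the shape of a point giving the replicate number and the bar the mean of 3 libraries. Oxt spans 0.666 to 28.8 RPKM and every group reaches across much of that range, while Pomc stays between 1.01 and 1.76 RPKM.

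Oxt encodes oxytocin together with its carrier neurophysin. Its level was 0.666, 7.98 and 22.1 RPKM in vehicle females and 28.8, 16.4 and 3.08 RPKM in zebularine females, in the order of replicates 1 to 3. It was 2.45, 20.1 and 11.5 RPKM in vehicle males and 2.41, 2.85 and 13.3 RPKM in zebularine males. Each group held at least 1 library under 4 RPKM and at least 1 above 13 RPKM, and no pair of groups was separated. The lowest value rested on 9 reads, with a 95% counting interval (exact Poisson, counting error only) of 0.305 to 1.26 RPKM. The library with the next lowest Oxt, zebularine male replicate 1, had 39 reads and an interval of 1.71 to 3.29 RPKM, and the highest had 325 reads. The group means were 16.1 ± 12.8 RPKM in zebularine females, 11.4 ± 8.82 in vehicle males, 10.2 ± 10.9 in vehicle females and 6.20 ± 6.19 in zebularine males (SD, n = 3 each). No neighbours in that order differed beyond their spread.

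Avp encodes vasopressin and its neurophysin. It stood at 1.78, 2.501 and 8.63 RPKM in vehicle females and at 4.49, 3.67 and 0.651 RPKM in zebularine females. In males it stood at 1.44, 5.64 and 4.42 RPKM under vehicle and at 1.14, 1.76 and 2.48 RPKM under zebularine. The groups overlapped in every comparison, and the lowest library, zebularine female replicate 3, held 8 reads. The means ran from 4.30 ± 3.76 RPKM in vehicle females, through 3.83 ± 2.16 in vehicle males and 2.94 ± 2.02 in zebularine females, to 1.79 ± 0.670 in zebularine males (SD, n = 3 each).

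Trh encodes the precursor that carries several copies of the TRH tripeptide. Vehicle females had 10.8, 30.1 and 35.9 RPKM and zebularine females 31.3, 25.1 and 9.49 RPKM. Vehicle males had 7.61, 25.6 and 22.3 RPKM and zebularine males 12.6, 17.7 and 26.5 RPKM. With 233 to 1087 reads per library this was the best counted of the 5 transcripts, and its groups overlapped in every comparison. The means were 25.6 ± 13.2 and 22.0 ± 11.3 RPKM in vehicle and zebularine females and 18.5 ± 9.59 and 18.9 ± 7.05 RPKM in vehicle and zebularine males (SD, n = 3 each).

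Crh encodes the peptide that starts the pituitary and adrenal response to stress. It was at 2.17, 4.93 and 5.39 RPKM in vehicle females and at 5.11, 4.36 and 4.42 RPKM in zebularine females. It was at 2.43, 5.002 and 5.34 RPKM in vehicle males and at 2.80, 4.22 and 4.45 RPKM in zebularine males. Replicate 1 was low in 3 of the groups, and the remaining 9 libraries lay between 4.22 and 5.39 RPKM. The zebularine females had the smallest SD, at 4.63 ± 0.414 RPKM, against 4.16 ± 1.74 in vehicle females, 4.26 ± 1.59 in vehicle males and 3.82 ± 0.895 in zebularine males (n = 3 each).

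Pomc was the lowest of the 5, on 15 to 48 reads per library. Vehicle females had 1.42, 1.06 and 1.04 RPKM and zebularine females 1.501, 1.76 and 1.45 RPKM. Vehicle males had 1.20, 1.65 and 1.71 RPKM and zebularine males 1.33, 1.01 and 1.11 RPKM. The treated females lay above the vehicle females without overlap, by 1.45 against 1.42 RPKM at the nearest libraries, whereas the male groups overlapped. These 2 libraries held 29 and 34 reads, with 95% counting intervals of 0.968 to 2.08 and 0.986 to 1.99 RPKM. Of all tested genes, 9.21% had the female groups apart in either direction. The means were 1.57 ± 0.170 RPKM in zebularine females, 1.52 ± 0.277 in vehicle males, 1.17 ± 0.217 in vehicle females and 1.15 ± 0.163 in zebularine males (SD, n = 3 each).

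The spread of Oxt between replicate libraries was among the widest of any gene. Its SD within groups was 1.65 on the log2(RPKM + 0.5) scale, the 4th highest of 16310 tested genes, whose median SD was 0.137. Avp, with 0.925, ranked 120th, Trh, with 0.829, ranked 221st, and Crh, with 0.451, ranked 1448th. Levels set part of this, so each gene was also read against tested genes with a mean RPKM within 2-fold of its own. The SD of Trh exceeded that of 99.7% of 5006 such genes, the SD of Avp that of 98.6% of 4242 and the SD of Crh that of 91.1% of 4607. Pomc, at 0.165, exceeded 22.3% of 3144. Counting error alone would give an SD of about 0.167 for Oxt, 0.210 for Avp, 0.0610 for Trh, 0.121 for Crh and 0.195 for Pomc. The observed SD was thus 9.84 times the counting SD for Oxt, 4.41 times for Avp, 13.6 times for Trh and 3.71 times for Crh, and 0.846 times for Pomc.

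**Figure D2:**
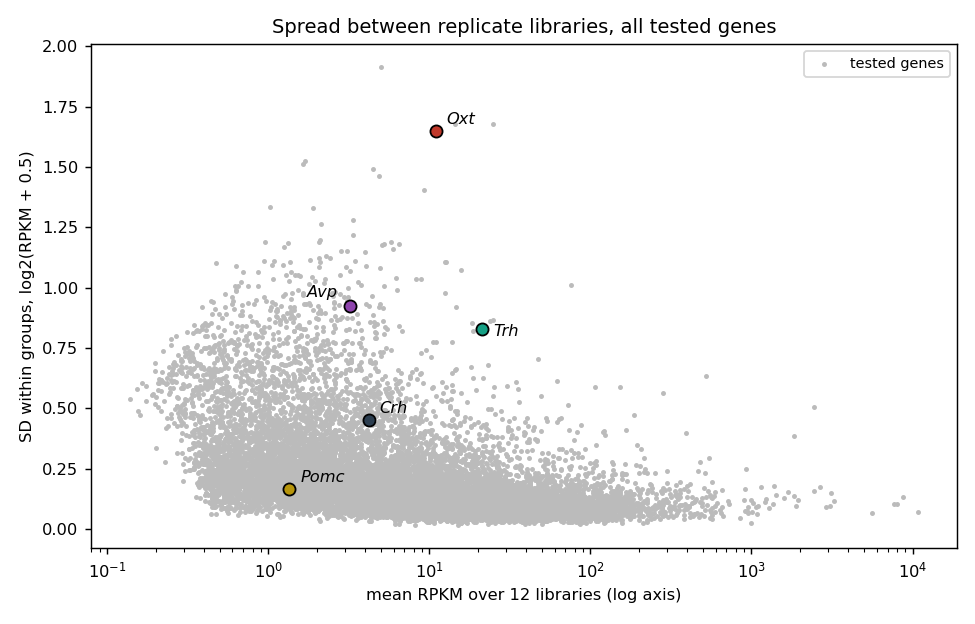
SD within groups on the log2(RPKM + 0.5) scale against the mean RPKM (log axis) for the 16310 tested genes in grey, with the 5 neurohormone genes in colour. Oxt at 1.65, Avp at 0.925 and Trh at 0.829 lie at the upper edge of the cloud at their levels, and Pomc at 0.165 lies inside it.

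Differences between groups took a small share of the variance of log2(RPKM + 0.5) over the 12 libraries: 5.84% for Trh, 6.91% for Crh, 11.5% for Oxt and 17.0% for Avp. The 4 group means use 27.3% of the degrees of freedom, which is the share that unrelated groupings would take on average. For Pomc the share was 55.6%, and the 4 groups were not tested together. Its SD within groups was 0.846 times the counting SD.

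The wide spread followed the same libraries in Oxt, Avp and Trh. The 5 libraries with the least Oxt were vehicle female replicate 1, zebularine female replicate 3, vehicle male replicate 1 and zebularine male replicates 1 and 2. The same 5 libraries had the least Avp and the least Trh. Of them, 4 were also among the 5 with the least Crh, and 2 among the 5 with the least Pomc. The 5 libraries came from all 4 groups, 2 from vehicle and 3 from zebularine animals, and 2 from females and 3 from males. They ran up to 3.08 RPKM of Oxt, and the next library had 7.98 RPKM, a gap of 1.37 on the log2 scale. A wider gap, of 1.85, lay between the lowest library and the next.

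**Figure D3:**
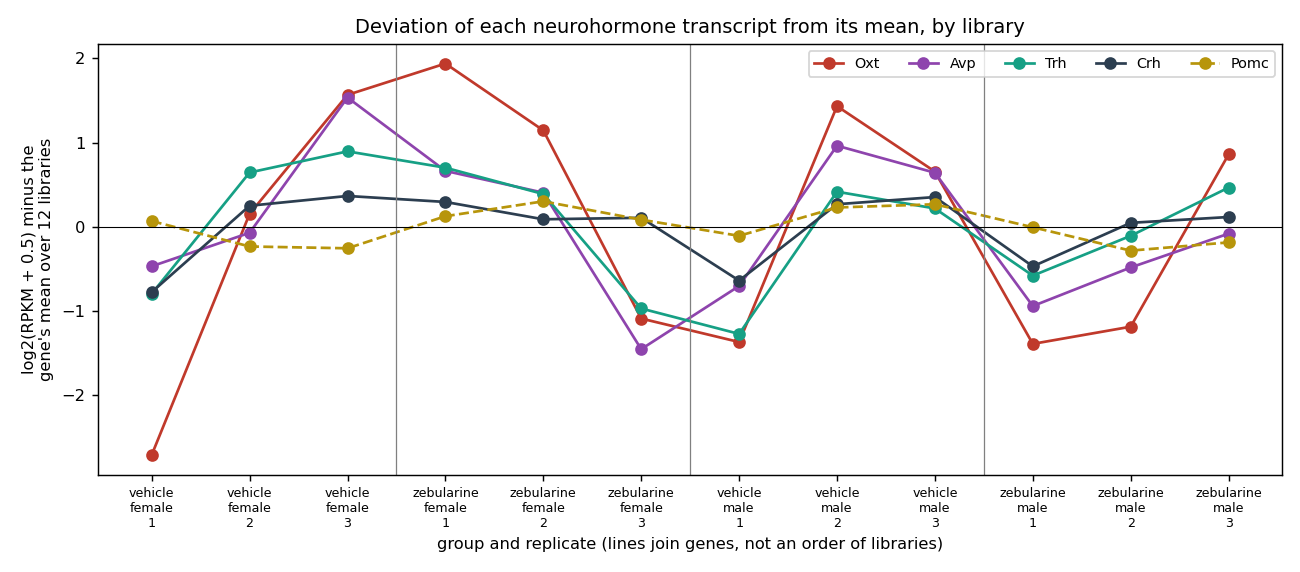
Deviation of log2(RPKM + 0.5) from each gene's mean over the 12 libraries, by group and replicate, with lines joining the points of a gene. Oxt, Avp and Trh (solid lines) lie below their means together in vehicle female replicate 1, zebularine female replicate 3, vehicle male replicate 1 and zebularine male replicates 1 and 2, and Pomc (dashed) stays within a narrow band.

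Over the 12 libraries Oxt correlated with Trh at r = 0.864 and rho = 0.825, with Crh at r = 0.834 and rho = 0.839, and with Avp at r = 0.814 and rho = 0.832. The permutation p-values of these r, adjusted over the 10 pairs of the 5 genes, were 0.00325, 0.0022 and 0.0036, and those of the rho were 0.0053 each. Avp and Trh correlated at r = 0.825 and rho = 0.818 (adjusted permutation p = 0.0035 and 0.0053), and Crh and Trh at r = 0.804 and rho = 0.783 (adjusted permutation p = 0.00592 and 0.00628). Avp and Crh had r = 0.614 and rho = 0.783, of which rho passed and r did not (adjusted permutation p = 0.00628 and 0.0578). No pair with Pomc passed, with r from -0.0427 against Trh to 0.206 against Oxt (adjusted permutation p from 0.736 to 0.894). The SD of Pomc within groups was 0.846 times its counting SD, so counting error could hide a relation with the other genes.

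**Figure D4:**
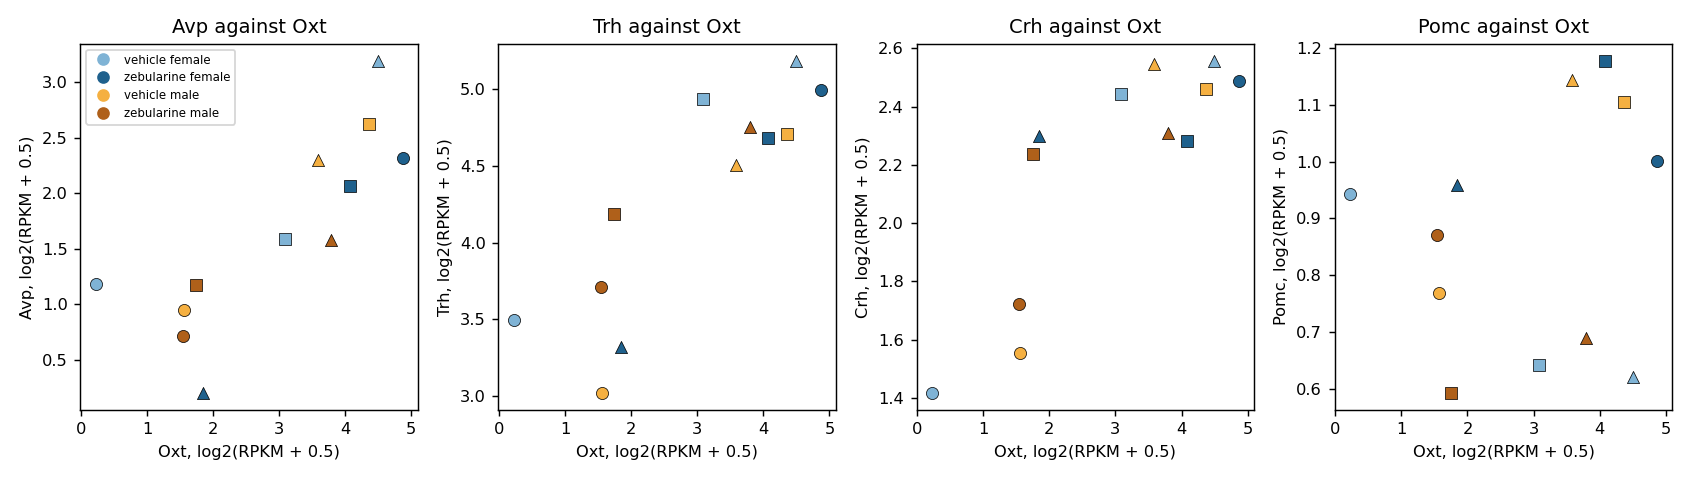
Avp, Trh, Crh and Pomc against Oxt, all as log2(RPKM + 0.5), 1 point per library with colour for the group and shape for the replicate number. Avp, Trh and Crh correlate with Oxt over the 12 libraries (r = 0.814, 0.864 and 0.834), although no pair passed within the 7 libraries with the most Oxt, and Pomc has r = 0.206. Crh is low in replicate 1 of vehicle females, vehicle males and zebularine males and lies between 4.22 and 5.39 RPKM in all other libraries.

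After each group's mean was subtracted, so that neither sex nor treatment contributed, Oxt correlated with Trh at r = 0.964, with Avp at r = 0.909 and with Crh at r = 0.826. The adjusted p-values, from exact permutations within groups, were 0.00257, 0.00257 and 0.00926. Without the 2 libraries farthest from the median of Oxt, r was 0.855 with Trh, 0.867 with Avp and 0.679 with Crh. For Crh and Trh, without the 2 libraries farthest from the Crh median, r was 0.649 and did not pass (adjusted permutation p = 0.0676). Within the 7 libraries that had the most Oxt, none of the 10 pairs passed. There r was 0.668 between Oxt and Avp, 0.384 between Oxt and Trh and 0.198 between Oxt and Crh (adjusted exact permutation p = 0.342, 0.786 and 0.815). These 7 were chosen by their Oxt values after seeing the data. A narrower range of Oxt tends to give a lower r, and with fewer libraries an r of a given size passes less easily. The 5 libraries low in Oxt are too few for an r of their own. Without zebularine female replicate 3, which stood apart over all genes, the pairs of Oxt with Avp, Trh and Crh all still passed.

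The 5 genes were also compared with library properties, as 15 relations in all. Depth had r = 0.0169 with Oxt, 0.107 with Avp, -0.129 with Crh and -0.0176 with Trh, and none passed. Pomc had r = 0.508 with depth, and 0.702 after subtraction of group means (adjusted permutation p of the former = 0.266). The first principal component of all tested genes, on which zebularine female replicate 3 stood apart, had r = -0.0698 with Oxt. The second, with 16.3% of the variance, correlated with Oxt at r = -0.784 and rho = -0.881 (adjusted permutation p = 0.0344 and 0.00645). It had r = -0.746 with Trh, -0.731 with Crh and -0.635 with Avp (adjusted permutation p = 0.0344, 0.0344 and 0.103). By rank, Trh passed (rho = -0.769, adjusted permutation p = 0.0349), and Crh (rho = -0.664) and Avp (rho = -0.699) did not (adjusted permutation p = 0.081 and 0.0706). Without the 2 libraries farthest from the median, r was -0.686 for Oxt, -0.704 for Trh, -0.52 for Crh and -0.547 for Avp. After subtraction of group means, r was -0.794 for Oxt, -0.777 for Trh, -0.718 for Crh and -0.75 for Avp. The members were among the genes that defined both components, so these relations are not independent of the members' own values. The part of that library-wide variation in the neurohormone levels was not tested.

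Likeness was also measured against every gene with a mean of at least 1 RPKM, 14372 genes besides the member itself, by r over the 12 libraries after subtraction of group means. By this measure Trh was the 15th most similar gene to Oxt and Avp the 80th, and Oxt was the 13th most similar to Trh. Crh ranked lower, as the 325th most similar gene to Oxt (r = 0.826) and the 1001st to Avp (r = 0.688). Among the genes most similar to Crh, Oxt was the 158th and Avp the 753rd. Pomc was the 7314th most similar gene to Oxt. Above r = 0.9 were 95 genes for Oxt, 52 for Avp, 28 for Crh, 139 for Trh and 11 for Pomc. The gene most like Oxt was ENSRNOG00000020902 (r = 0.992), whose level ran only from 30.4 to 38.0 RPKM. The gene most like Trh was ENSRNOG00000018445 (r = 0.980, 17.2 to 35.6 RPKM), and those for Crh, Avp and Pomc were ENSRNOG00000018268 (r = 0.969), ENSRNOG00000002778 (r = 0.963) and ENSRNOG00000003835 (r = 0.948). Only identifiers are given for these in the files, and a high r among so many genes over 12 libraries is a description.

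Zebularine was compared with vehicle over both sexes, 6 libraries against 6. None of the 5 neurohormone genes passed limma's test at an adjusted p of 0.05, where 0.405% of all tested genes passed, and none had an unadjusted p under 0.05, where 7.56% of all tested genes did. Their median log2 difference was 0.012, beside 0.0051 over all tested genes. The 95% intervals give the precision of each estimate. For Pomc the zebularine to vehicle ratio on the RPKM + 0.5 scale was 1.01, with an interval from 0.856 to 1.19. For Crh it was 1.04 (0.738 to 1.47) and for Trh 0.976 (0.523 to 1.82). For Avp it was 0.646 (0.321 to 1.3, limma adjusted p = 0.744) and for Oxt 1.07 (0.309 to 3.68). The Oxt interval was the widest of the 5 and held both a fall and a rise of more than 3-fold. Without zebularine female replicate 3 the log2 difference of Avp went from -0.63 to -0.30, and that of Trh from -0.03 to 0.22. Limma-voom on the recovered reads called none of the 5 in this or any other comparison.

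**Figure D5:**
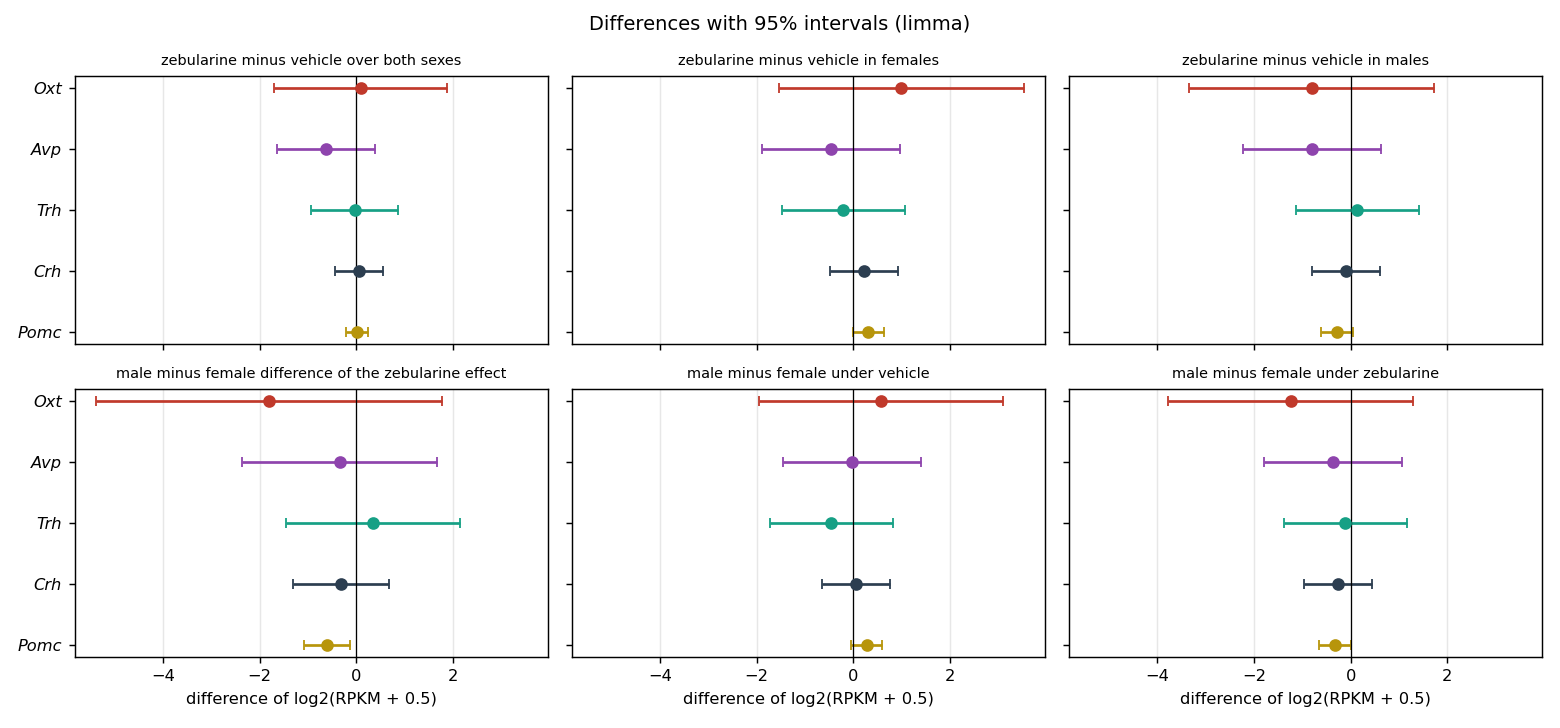
Difference of log2(RPKM + 0.5) for each neurohormone gene in 6 comparisons, with limma's 95% interval as a bar. Oxt has the widest intervals (from -1.70 to 1.88 over both sexes) and Pomc the narrowest (-0.22 to 0.25), and the Pomc interval for the difference of the zebularine effect between the sexes, -1.07 to -0.13, lies below 0 before adjustment over all genes.

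Within females, none of the 5 passed (0.0429% of all tested genes did), and none had an unadjusted limma p under 0.05, where 5.4% of all tested genes did. The Oxt log2 difference was 0.99 ± 1.15 (SE) and turned to -0.20 without vehicle female replicate 1, the library with 9 Oxt reads. The Pomc difference was 0.31 ± 0.15 (SE, limma adjusted p = 0.952). Pomc was the only one of the 5 with treated and vehicle females apart, as were 9.21% of all tested genes. Without zebularine female replicate 3 the Oxt log2 difference was 1.87, that of Avp 0.20 and that of Trh 0.30, the last 2 with changed sign.

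Within males, none of the 5 passed, nor did any other gene (0.0%), and none had an unadjusted limma p under 0.05, where 7.58% of all tested genes did. The zebularine minus vehicle differences of Oxt and Avp were -0.81 ± 1.15 and -0.80 ± 0.65 on the log2 scale (± SE), with limma adjusted p = 0.887 and 0.757. The difference was -0.29 ± 0.15 for Pomc (limma adjusted p = 0.663), -0.10 ± 0.32 for Crh and 0.14 ± 0.58 for Trh. None of the 5 had its male groups apart, where 14.3% of all tested genes did.

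Whether zebularine acted differently in males and females was tested as an interaction, in which no gene passed (0.0%). Of the 5, only Pomc had an unadjusted limma p under 0.05, as had 4.05% of all tested genes. Its male minus female difference of the zebularine effect was -0.60 ± 0.21 (SE), with a 95% interval from -1.07 to -0.13 and an unadjusted limma p of 0.0172 (limma adjusted p = 0.976). The value lay between -0.79 and -0.47 over the alternatives with all libraries and between -0.72 and -0.53 when any library was left out, and it passed in none. For Oxt the interaction was -1.81 ± 1.62 (SE), with an interval from -5.38 to 1.77.

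Males and females were compared under vehicle and under zebularine. Under vehicle none of the 5 passed limma's test (0.0123% of all tested genes did), and none had an unadjusted p under 0.05, where 2.08% did. The male minus female log2 difference was 0.57 ± 1.15 for Oxt, -0.03 ± 0.65 for Avp, 0.05 ± 0.32 for Crh, -0.46 ± 0.58 for Trh and 0.27 ± 0.15 for Pomc (SE). None of the 5 had the vehicle males and females apart, as 6.63% of all tested genes had. Vasopressin is known for a sex difference in other forebrain cells of adult rats, and here the interval of Avp reached from 0.363 to 2.63 as a male to female ratio. Under zebularine none passed either (0.0307% of all tested genes did), and none had an unadjusted p under 0.05, where 11.1% did. The differences then ran from -1.24 ± 1.15 for Oxt to -0.11 ± 0.58 for Trh (SE), with a median of -0.33 beside -0.016 over all tested genes. Without zebularine female replicate 1 those of Avp and Trh were above 0, at 0.0228 and 0.2172. Pomc, at -0.33 ± 0.15 (SE, limma adjusted p = 0.458), had the treated males below the treated females without overlap, as 15.4% of all tested genes had the groups apart in either direction.

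A ratio of Oxt to Avp cancels any factor that acts equally on both genes in a library. Oxt exceeded Avp in 11 of 12 libraries, with a median ratio of 2.90 in RPKM. The ratio was 0.375, 3.19 and 2.56 in vehicle females and 6.40, 4.46 and 4.74 in zebularine females. It was 1.71, 3.56 and 2.61 in vehicle males and 2.11, 1.62 and 5.38 in zebularine males. The treated females lay above the vehicle females without overlap, and the male groups overlapped. Over both sexes the zebularine minus vehicle difference of the log2 ratio was 0.947 (two-sided exact permutation of treatment within sex, p = 0.145, where 0.005 is the smallest possible). It was 1.82 in females, at the smallest p that 3 against 3 libraries can give (two-sided exact permutation p = 0.1), and 0.0721 in males (p = 1.0, same test). The test first chosen was the one over both sexes, and the sexes were not tested against each other for this ratio. Without vehicle female replicate 1, whose 9 Oxt reads gave the ratio of 0.375, the difference over both sexes fell to 0.458 (exact permutation p = 0.225) and that in females to 0.844 (exact permutation p = 0.1, the smallest possible). The difference in females ran from 0.844 to 2.39 when a library was left out. Its exact permutation p was 0.1 whichever vehicle female library was left out and 0.3 whichever zebularine female library was. The difference in males ran from -0.441 to 0.423 when a library was left out, below 0 without vehicle male replicate 1 or zebularine male replicate 3.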

How the data were processed

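RNA from rat preoptic area was extracted with Trizol and sequenced after standard Illumina library preparation, per the labels' protocols. The submitters' processing notes name the aligner TopHat. The read counter, the genome build, the annotation and whether counting used strand do not appear in the sources used here. The authors deposited RPKM for 29516 Ensembl identifiers per library. These values were whole multiples of 1 step per gene and library for all 23427 genes above 0 (tolerance 1e-05 of a read for few reads, 0.002 for many), trivially so for 1386 genes seen in 1 library. The steps gave reads, depths and gene model lengths.

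A gene entered the tests when 3 or more libraries reached 0.5 RPKM. The resulting 16310 genes were fitted as log2(RPKM + 0.5) with limma 3.58.1 (R 4.3.3; eBayes with trend) on 4 group means. P-values are two-sided, and all tested genes entered the Benjamini-Hochberg adjustment. Fold changes on this scale understate changes of low genes. Correlations used 100000 permutations, or all 1296 within groups. The fit was also run on simulated counts. Every simulated gene had the same spread beyond counting error, below that of Oxt, Avp, Trh and Crh. The changed genes were all better counted than Pomc, so that run does not bear on the members. Python 3.11.15 was used with numpy 2.4.6, pandas 2.3.3 and scipy 1.17.1.

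Named genes were the 5 members and, for each, the gene with the highest r after subtraction of group means. The members, lists and tests were chosen with earlier results of these data known. Lists of receptors, processing enzymes, regulators and cell type markers were drawn up by symbol and are not analysed here, because the reference table matched none of the identifiers. The sample titles give group and replicate. No library was a duplicate of another in its group: between replicates, chi-square over its degrees of freedom was 6.03 to 22.0. Libraries of different groups were not compared in this way. Alternatives were median-ratio scaling, quantile normalization, other pseudocounts and filters, robust limma, array weights, fits of the compared groups alone, replicate blocks, limma-voom on recovered reads and leaving out each library. A block on a number in the file names, recovered reads scaled by depth without a pseudocount, correlations within 7 libraries and leaving out libraries from the Oxt to Avp ratio within each sex were added after seeing the data. The split of that ratio by sex was not among the tests first chosen.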

Additional observations from a re-analysis of the deposited data

How the results depend on the processing

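None of the 5 neurohormone genes passed in any of the 6 comparisons under any alternative: of 710 alternative values 0 were called, the lowest adjusted p (limma) was 0.377 against 0.458 in the analysis reported, and 59 had the opposite sign. Libraries of the same replicate number did not deviate together as a rule (r from -0.298 to 0.295 over 18 pairs). Of these pairs, 5 were above 0.1, and the median r was -0.0207, beside 0.026 between different numbers. Replicate 1 of vehicle females, vehicle males and zebularine males had r of 0.163 to 0.295 with each other. Replicate 1 of zebularine females had r of -0.298 to -0.107 with these. With 3 libraries per group, whether the number pairs samples cannot be settled this way. With a replicate block no member passed, the count over all tested genes in both sexes fell from 66 to 9, and r was 0.903 for Oxt and Avp, 0.968 for Oxt and Trh and 0.828 for Oxt and Crh. Over all tested genes the count left after leaving out a library ran from 11 (without zebularine male replicate 1) to 113 (without zebularine female replicate 1) in both sexes, from 0 (without vehicle female replicate 1, zebularine female replicate 2 or any zebularine male library) to 57 (without zebularine female replicate 1) in females (7 reported), from 0 to 15 in males (without zebularine female replicate 3; 0 reported) and from 3 to 18 between the sexes under zebularine (5 reported), and other settings gave 6 to 90, 1 to 8, 0 to 4 and 1 to 7. The interaction count was 0, and 2 with no filter on low values. The count between the sexes under vehicle was 2, and 1 to 5 under other settings.

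Differences that changed sign are given as log2 values, and where no other cause is named the cause was not tested. With array weights, Trh in both sexes was 0.2545, Oxt and Crh in males 0.107 and 0.09549, and Oxt and Crh between the sexes under vehicle -0.1189 and -0.1498. With a block on the number in the file names, chosen after seeing the data, Oxt, Crh and Pomc in both sexes were -0.2109, -0.109 and -0.0156, Trh in males -0.3061, Avp between the sexes under vehicle 0.2036 and Trh under zebularine 0.02179. Quantile normalization gave -0.04312 for Pomc in both sexes, and limma-voom 0.08853 for Avp between the sexes under vehicle.

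Leaving out 1 library at a time, the zebularine difference in both sexes ran from -0.5039 to 0.5651 for Oxt, -0.1204 to 0.1651 for Crh, -0.2999 to 0.2177 for Trh and -0.04753 to 0.06385 for Pomc. In females it ran from -0.1953 to 1.943 for Oxt, -0.8602 to 0.2025 for Avp, -0.1442 to 0.4267 for Crh and -0.7303 to 0.2968 for Trh. In males it ran from -0.4132 to 0.08718 for Crh and -0.3914 to 0.4533 for Trh. The interaction ran from -1.004 to 0.05826 for Avp, -0.6302 to 0.04758 for Crh and -0.183 to 0.8689 for Trh. Between the sexes under vehicle the range was -0.6201 to 1.518 for Oxt, -0.4316 to 0.5701 for Avp, -0.3139 to 0.3639 for Crh and -0.9826 to 0.06927 for Trh. Under zebularine it was -1.036 to 0.0228 for Avp and -0.6189 to 0.2172 for Trh.

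Of the 10 pairs of genes, 5 passed by r, 5 to 6 with any library left out, and 0 within the 7 libraries with the most Oxt, a set chosen after seeing the data in which fewer libraries and a narrower range of Oxt enter. The r of Oxt and Pomc turned to -0.0607 after subtraction of group means and -0.0118 with the block. That of Crh and Pomc turned to -0.155, -0.11 and, within the 7 libraries, -0.0957, and ran from -0.0516 to 0.199 with a library left out. That of Trh and Pomc turned to 0.0546 and 0.116 and ran from -0.159 to 0.123. The Oxt to Avp difference of 0.947 ran from 0.458 to 1.23 with a library left out (two-sided exact permutation p from 0.06 to 0.34) and was 0.722 with 0.5 RPKM added to both genes (p = 0.22, same test).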
